A study of Mus musculus with 6 samples.

Results

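Transcript levels of 10 feedback inhibitors and targets of extracellular signal-regulated kinase (ERK) were followed in mouse cells treated with the chemokine CXCL3. The genes are named members of the pathway. The rule that lists them uses no measured value, but it was set with earlier results of these data known. They are Dusp1, Dusp4, Dusp5, Dusp6, Spry1, Spry2, Spry4, Spred1, Spred2 and Etv5. They make up 10 of the 51912 genes in the deposited table. There were 3 libraries of cells kept with CXCL3 for 48 h and 3 of control cells. All cells were labelled as primary fibroblasts from mice aged 6 weeks. The labels do not give a strain, an organ, a dose of CXCL3 or what the control cells received, and they do not say that replicates were separate cultures or animals. Each p-value is therefore set against a spread between libraries that may be technical.

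ERK is the last kinase of a cascade that runs from receptors through Ras, Raf and MEK to the nucleus, where ERK phosphorylates transcription factors of the ETS and AP-1 kinds. Among the genes it switches on are its own inhibitors, so their transcript levels are widely used as a readout of the pathway. The dual-specificity phosphatases encoded by the Dusp genes remove phosphate from ERK and related kinases. The Sprouty and Spred proteins act further upstream, between receptors and Raf. The series title names inflammatory cells as a source of CXCL3 in pancreatic cancer, and the question of the comparison is whether these readout genes differed after CXCL3. CXCL3 signals through the receptor CXCR2, and G protein-coupled receptors of this kind can feed into ERK.

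The values are TPM, a transcript's abundance per length as a share of all transcripts in a library. TPM keeps no read depth, so the depth is unknown and no counting interval is given. The table holds fibroblast transcripts, with 7 of 8 fibroblast markers at 1 TPM or more in every library, and also macrophage transcripts, with all 12 macrophage markers at that level. The summed TPM of the macrophage markers ranged from 15012 to 15108 in CXCL3 libraries and from 15320 to 18322 in controls, and that of the fibroblast markers from 3021 to 3131 in CXCL3 libraries and from 2786 to 3726 in controls. Most of the macrophage sum was Lyz2, at 13115 to 13244 TPM in CXCL3 libraries and at 13260 to 16166 TPM in controls. Of the 12 macrophage markers 5 had a positive and 7 a negative log2 difference, and 1 passed the test used below, C1qa, which fell by 0.78 on the log2 scale (limma, adjusted p = 0.0493). Mrc1 lay wholly above the controls with CXCL3 (0.53, adjusted p = 0.248). C1qa, C1qb (-0.42, adjusted p = 0.206), C1qc (-0.45, adjusted p = 0.11) and Lyz2 lay wholly below. Of the fibroblast markers, Vim lay wholly above, and Dcn and Lum, which was below 1 TPM, wholly below. Of all genes tested, 7.92% lay wholly above and 9.31% wholly below. These markers were named after their values were seen. Epithelial markers (0 of 5) and lymphocyte markers (0 of 5, with Cd3e at 0 in all libraries) did not reach that level in every library, and 1 of 5 endothelial and 2 of 5 neutrophil markers did. The part of other cell types in the results was not tested. In whole cultures, fewer cells of a type and less RNA per cell cannot be told apart, and neither can the cell type a transcript came from. Controls 2 and 3 stood apart from the other 4 libraries along transcript length. Spearman's rho between transcript length and a gene's distance from its 6-library mean was 0.20 to 0.40 in CXCL3 libraries, 0.45 in control 1, -0.50 in control 2 and -0.48 in control 3. It was taken across 13114 genes, which share their library and are not replicates.

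None of the 9 members that could be tested passed an adjusted p of 0.05, and Spry1 was too low to test. The test was limma on log2(TPM + 1), CXCL3 minus control, adjusted over 13139 genes with at least 1 TPM in at least 3 libraries. Of all genes tested, 0.16% passed this threshold. At an unadjusted p under 0.05 the count was also 0 of 9 members, against 11.6% of all genes. All 9 had a positive difference, as did 62.3% of all genes tested. The median of the 9 was 0.18 on the log2 scale, where that of all genes tested was 0.07. The CXCL3 and control libraries overlapped for all 10 members, while the groups did not overlap for 17.2% of all genes tested (CXCL3 wholly above for 7.92% and wholly below for 9.31%).

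**Figure D1:**
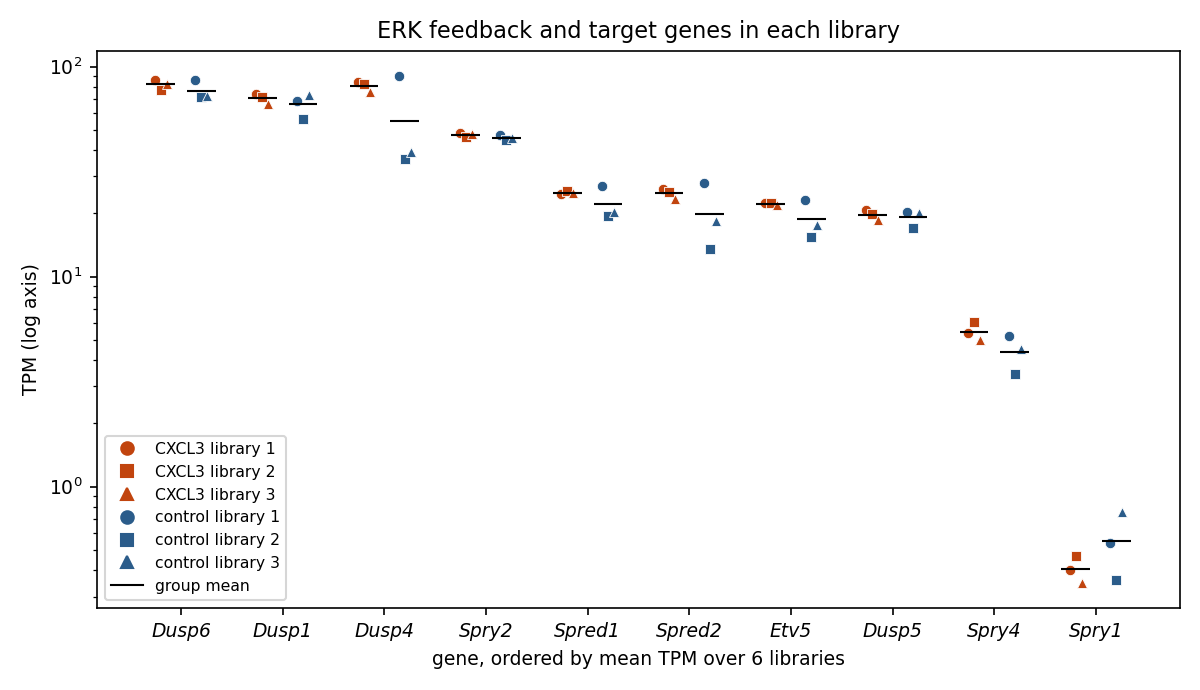
TPM of each of the 10 genes in the 3 CXCL3 libraries (left of each pair) and the 3 control libraries (right), on a log axis, with symbols for the library number and lines for the group means. Control 1 lies inside the range of the CXCL3 libraries for 5 genes and above it for the other 5, and control 2 is the lowest of the 6 libraries for 9 genes.

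By level, Dusp6 was first with a mean of 79.5 TPM over 6 libraries, followed by Dusp1 (68.4 TPM) and Dusp4 (68.0 TPM). The ranges of these 3 phosphatase genes overlapped, and Dusp1 was above Dusp4 in only 2 of 6 libraries. Spry2 averaged 46.6 TPM and was above the next gene in all 6 libraries. Spred1 (23.7 TPM), Spred2 (22.5 TPM), Etv5 (20.5 TPM) and Dusp5 (19.5 TPM) formed a band with overlapping ranges. Spry4 (4.93 TPM) and Spry1 (0.48 TPM) came last, each with a range apart from its neighbours. Of the genes tested, 13.4% had a higher mean than Dusp6 and 75.2% a higher mean than Spry4.

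Dusp6 encodes the phosphatase that acts on ERK in the cytoplasm with high selectivity. Dusp6 was at 86.6, 77.0 and 83.0 TPM in CXCL3 libraries 1, 2 and 3 and at 86.2, 71.6 and 72.5 TPM in controls 1, 2 and 3. Control 1 lay inside the range of the CXCL3 libraries and the groups overlapped. The means were 82.2 ± 4.89 TPM with CXCL3 and 76.8 ± 8.18 TPM in controls (SD, n = 3 each), a log2 difference of 0.10 ± 0.10 (SE; limma, adjusted p = 0.611). The 95% interval of that difference ran from -0.12 to 0.32. In GENCODE release M21 Dusp6 (ENSMUSG00000019960) lies on the plus strand of chromosome 10 from 99263231 to 99267489 of GRCm38, the build of all positions here.

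Dusp5, whose product acts on ERK inside the nucleus, was at 20.7, 19.9 and 18.6 TPM in CXCL3 libraries and at 20.4, 17.1 and 20.1 TPM in controls. Only control 2 lay outside the CXCL3 range. The log2 difference was 0.04 ± 0.11 (SE; limma, adjusted p = 0.863), with an interval from -0.21 to 0.29. Its sign turned negative with median-of-ratios scaling (-0.04) and with quantile normalization (-0.04). Dusp5 (ENSMUSG00000034765) lies on the plus strand of chromosome 19 from 53529109 to 53542431 and overlaps an antisense gene, AC137853.2.

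Dusp1 encodes a nuclear phosphatase that is also active on the stress kinases p38 and JNK and is an immediate early gene. It was at 74.4, 71.4 and 66.1 TPM in CXCL3 libraries and at 68.6, 56.4 and 73.6 TPM in controls. Control 2 was the lowest, and the other controls lay inside the CXCL3 range. The log2 difference was 0.10 ± 0.11 (SE; limma, adjusted p = 0.663). Without control 2 it was -0.01. Dusp1 (ENSMUSG00000024190) lies on the minus strand of chromosome 17 from 26505590 to 26562128. It overlaps Ergic1 on the other strand, which averaged 77.0 TPM. The counting is not stated to use strand, so for Dusp1, as for Dusp5, reads from the overlap cannot be told apart.

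Of the 10 members, 8 had a promoter in the RefSeq table of GRCm38.p6, and the upstream bases of 3 phosphatase genes are shown because they hold 3 different textbook response elements. Each runs 5′ to 3′ on the gene's own strand within the 250 bases before the RefSeq start, and bases in GENCODE exons of protein-coding genes were left out. The RefSeq start is base 26508472 for Dusp1, which is inside the span that GENCODE gives the gene, base 53529145 for Dusp5 and base 99263231 for Dusp6. Capitals mark matches on either strand to the cyclic AMP response element core TGACGTC in Dusp1 and to the CArG box in Dusp5. In Dusp6 they mark CGGAAG, a form of the ETS site. The stretches shown are chr17:26508520-26508722 on the minus strand, chr19:53528895-53529108 on the plus strand and chr10:99262981-99263230 on the plus strand.
Dusp1: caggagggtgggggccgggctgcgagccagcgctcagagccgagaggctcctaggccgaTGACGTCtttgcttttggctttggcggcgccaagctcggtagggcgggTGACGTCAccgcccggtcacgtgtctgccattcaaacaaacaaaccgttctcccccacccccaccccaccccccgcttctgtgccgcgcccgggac
Dusp5: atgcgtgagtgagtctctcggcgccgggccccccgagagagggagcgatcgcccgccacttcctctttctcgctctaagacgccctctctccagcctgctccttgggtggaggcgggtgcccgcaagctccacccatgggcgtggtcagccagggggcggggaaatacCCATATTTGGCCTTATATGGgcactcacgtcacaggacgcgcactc
Dusp6: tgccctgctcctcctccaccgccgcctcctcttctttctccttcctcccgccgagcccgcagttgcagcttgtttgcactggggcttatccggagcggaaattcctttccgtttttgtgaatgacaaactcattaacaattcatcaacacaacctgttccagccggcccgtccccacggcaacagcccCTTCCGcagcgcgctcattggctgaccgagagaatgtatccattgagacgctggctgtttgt

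Motifs were searched on both strands in all 250 bases before each RefSeq start, exonic bases included, and positions count back from that start. The Dusp1 window holds the full palindrome TGACGTCA once, from base 143 to base 136 before the start, and the core TGACGTC again from base 191 to base 185. The palindrome contains the core on both strands, so the 2 motifs overlap there. Of 32851 promoter windows in the table, 1.55% held the palindrome and 2.78% the core. The Dusp5 window holds 2 adjacent CArG boxes, the sites of serum response factor, from base 82 to base 73 and from base 72 to base 63, and 1.47% of all windows held a CArG box. The ETS-type sequence CGGAAG lies from base 62 to base 57 in the Dusp6 window. CGGAAG was also found in the windows of Spred1 (bases 17 to 12) and Spred2 (bases 43 to 38), against 13.6% of all windows. Other and shorter forms of the ETS site were not searched, so a window without CGGAAG may still hold one. The Spred2 window holds TGACGTC too, from base 53 to base 47. Both Spred2 matches lie in bases nearer to the RefSeq start than base 68, where GENCODE has an exon. No match to TGANTCA, the AP-1 site, was found in the windows of the 8 members, and 6.75% of all windows held it. These matches describe the letters of the windows and are not measured binding sites.

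Dusp4 spread more among the controls than any other member tested. It encodes a nuclear phosphatase for ERK and the stress kinases. Dusp4 (ENSMUSG00000031530) lies on the plus strand of chromosome 8 from 34807297 to 34819894. Dusp4 was at 84.1, 82.7 and 75.6 TPM in CXCL3 libraries 1, 2 and 3 and at 90.1, 36.4 and 39.4 TPM in controls 1, 2 and 3. Control 1 was the highest of all 6 libraries, and controls 2 and 3 were the lowest, so that the groups overlapped. The means were 80.8 ± 4.58 TPM with CXCL3 and 55.3 ± 30.2 TPM in controls (SD, n = 3 each). The log2 difference was 0.66 ± 0.31 (SE; limma, adjusted p = 0.447), with an interval from -0.06 to 1.38.

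The gap lay inside the control group. Control 1 had 2.38 times the mean Dusp4 level of controls 2 and 3, where the median of all genes for this ratio was 1.17 and 305 of 13122 genes had a larger one. The SD of log2 values was 0.08 in CXCL3 libraries and 0.71 in controls, and 339 of 13139 genes had a larger SD among controls. With the dependence on transcript length and GC content taken out of each library (a loess curve), the SD of Dusp4 among controls was 0.61. The level of Dusp4 relative to Dusp6, which does not depend on how a library is scaled, was 0.971, 1.08 and 0.911 in CXCL3 libraries and 1.05, 0.509 and 0.543 in controls. Dusp4 made up 31.1% to 33.0% of the summed TPM of the 4 phosphatase genes in CXCL3 libraries, and 34.0%, 20.1% and 19.1% in controls 1, 2 and 3.

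Spry2, an inhibitor of receptor tyrosine kinase signalling to Ras, had the smallest spread among controls of the 9 members tested, in the deposited values. It was at 48.4, 46.1 and 47.8 TPM in CXCL3 libraries and at 47.1, 44.5 and 45.5 TPM in controls. Controls 2 and 3 lay below the CXCL3 range and control 1 inside it. The log2 difference was 0.05 ± 0.07 (SE; limma, adjusted p = 0.718), with an interval from -0.12 to 0.22, and it was -0.02 with median-of-ratios scaling. Spry2 (ENSMUSG00000022114) lies on the minus strand of chromosome 14 from 105891947 to 105896819. Its SD of log2 values among controls was 0.04, and 12709 of 13139 genes had a larger one. Spry2 made up 87.6% to 89.9% of the summed TPM of the 3 Sprouty genes in CXCL3 libraries and 89.1% to 92.2% in controls.

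The related gene Spry4, often induced by growth factors, was at 5.38, 6.05 and 5.01 TPM in CXCL3 libraries and at 5.22, 3.43 and 4.51 TPM in controls. Control 2 was again the lowest and control 1 lay inside the CXCL3 range. The log2 difference was 0.28 ± 0.17 (SE; limma, adjusted p = 0.487). Spry1 was at 0.40, 0.47 and 0.35 TPM in CXCL3 libraries and at 0.54, 0.36 and 0.76 TPM in controls, below 1 TPM in every library. Spry4 (ENSMUSG00000024427) lies on the minus strand of chromosome 18 from 38586247 to 38601415, and Spry1 (ENSMUSG00000037211) on the plus strand of chromosome 3 from 37639947 to 37644598. Spry1 was the single member not lowest in control 2. Without a filter on low values its log2 difference was -0.14 (limma, adjusted p = 0.698).

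The Spred genes encode Sprouty-related proteins that bring neurofibromin, a brake on Ras, to the membrane. Spred1 was at 24.7, 25.7 and 25.0 TPM in CXCL3 libraries and at 27.0, 19.4 and 20.3 TPM in controls. Spred2 was at 26.2, 25.3 and 23.5 TPM in CXCL3 libraries and at 27.9, 13.6 and 18.5 TPM in controls. For both genes control 1 was above every CXCL3 library and controls 2 and 3 were below them. The log2 differences were 0.18 ± 0.13 for Spred1 (SE; limma, adjusted p = 0.526) and 0.37 ± 0.23 for Spred2 (adjusted p = 0.495). Spred1 (ENSMUSG00000027351) lies on the plus strand of chromosome 2 from 117121374 to 117182279, and Spred2 (ENSMUSG00000045671) on that of chromosome 11 from 19924375 to 20024026. Spred1 has the longest transcript of the members, 6016 bases, against 4449 for Spred2 and 2740 for Dusp4. With the length and GC trend removed, the difference of Spred1 was -0.01 and its SD among controls 0.0035, against 0.25 before. For Spred2 they were 0.23 and 0.29, with an SD of 0.49 before, and control 2 was still the lowest library. The ratio of Spred2 to Spred1 was 1.06, 0.99 and 0.94 in CXCL3 libraries and 1.03, 0.70 and 0.91 in controls.

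**Figure D2:**
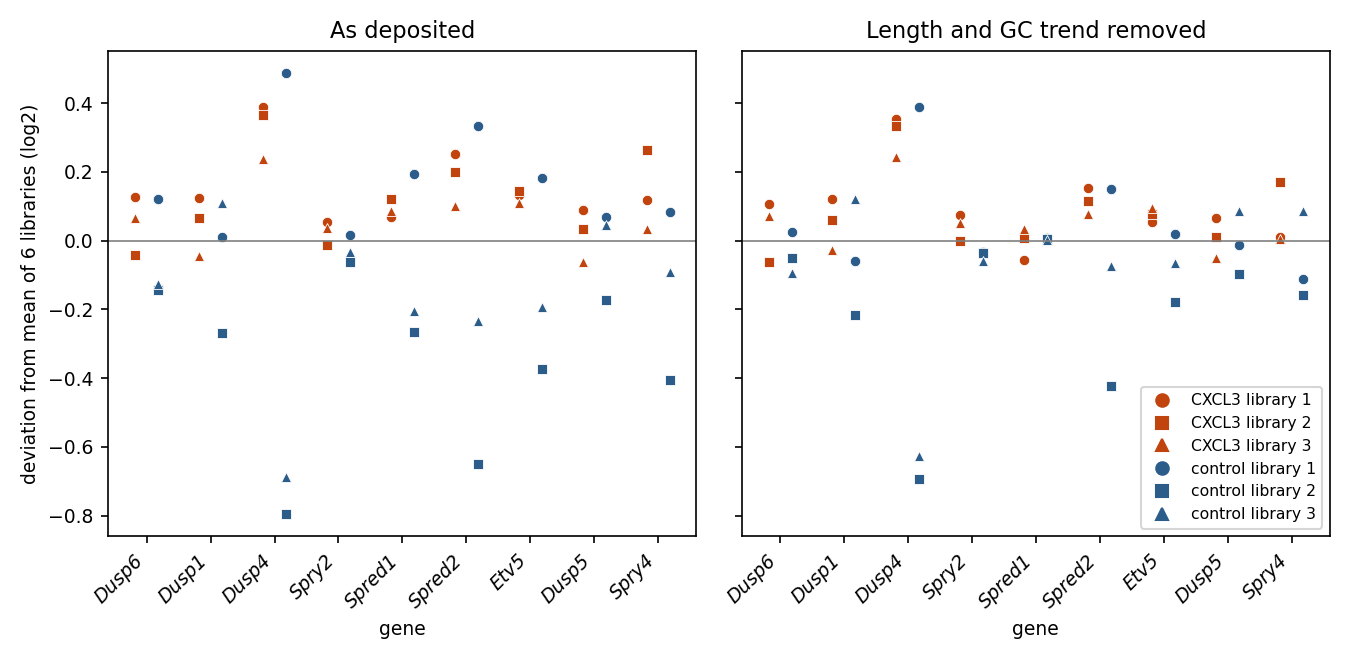
Deviation of each library from the mean of all 6 on the log2(TPM + 1) scale for the 9 genes tested, as deposited (left panel) and with the dependence on transcript length and GC content taken out of each library (right panel). Controls 2 and 3 remain far below zero for Dusp4 in both panels (-0.80 and -0.69 as deposited, -0.69 and -0.63 with the trend removed), while all 3 controls of Spred1 come to lie together.

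Etv5 encodes an ETS transcription factor of the PEA3 subfamily, a target of ERK rather than an inhibitor. It was at 22.3, 22.5 and 22.0 TPM in CXCL3 libraries and at 23.1, 15.4 and 17.6 TPM in controls. Control 1 was above all CXCL3 libraries and controls 2 and 3 were below. The log2 difference was 0.26 ± 0.15 (SE; limma, adjusted p = 0.478), and 0.15 with the length and GC trend removed. Etv5 (ENSMUSG00000013089) lies on the minus strand of chromosome 16 from 22381309 to 22439719. Among the CXCL3 libraries the SD of its log2 value was 0.02, where the median of all genes was 0.09.

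Across the 10 members, control 2 was the lowest library for 9, which held for 40.5% of all genes tested. Controls 2 and 3 both lay below every CXCL3 library for 7 members, namely Dusp4, Dusp6, Spry2, Spry4, Spred1, Spred2 and Etv5, and for 44.5% of all genes tested. Control 1 lay inside the range of the CXCL3 libraries for 5 members and above it for the other 5. In the deposited values, all 9 members tested had a larger SD of log2 values in controls than with CXCL3, as did 80.3% of all genes tested. With the length and GC trend removed, the SD was larger with CXCL3 for Dusp6, Spry2 and Spred1. It was 0.089 with CXCL3 and 0.060 in controls for Dusp6, 0.039 and 0.014 for Spry2, and 0.046 and 0.0035 for Spred1. The summed TPM of all 10 was 393.3, 377.1 and 366.9 in CXCL3 libraries and 396.2, 278.3 and 312.8 in controls.

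What the comparison showed turned on which controls were used. Without control 1, 4 of 9 members were higher with CXCL3 at an adjusted p of 0.05, against 25.2% of all genes, and 0 were lower, against 7.17%. These were Dusp4 (log2 difference 1.07; limma, adjusted p = 0.00336), Spred2 (0.63, adjusted p = 0.0155), Etv5 (0.41, adjusted p = 0.013) and Spred1 (0.33, adjusted p = 0.0145). Controls 2 and 3, left in that fit, had similar correlations with transcript length (-0.50 and -0.48). Their spread may therefore understate that between replicates. Without controls 2 and 3 the sign was negative for 6 members, with -0.16 for Dusp4, -0.15 for Spred2, -0.10 for Spred1, -0.07 for Dusp6 and -0.05 for Etv5 and Dusp5. It was negative for 68.9% of all genes as well, whose median was -0.08, against -0.05 for the members. None of the 9 passed, where 0.639% of all genes did. In that fit control 1 was assumed to vary like the CXCL3 libraries. With library weights, which gave control 1 the lowest weight of 0.17, Dusp4 passed (0.94, adjusted p = 0.0331), 1 of 9 members against 7.96% of all genes higher.

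**Figure D3:**
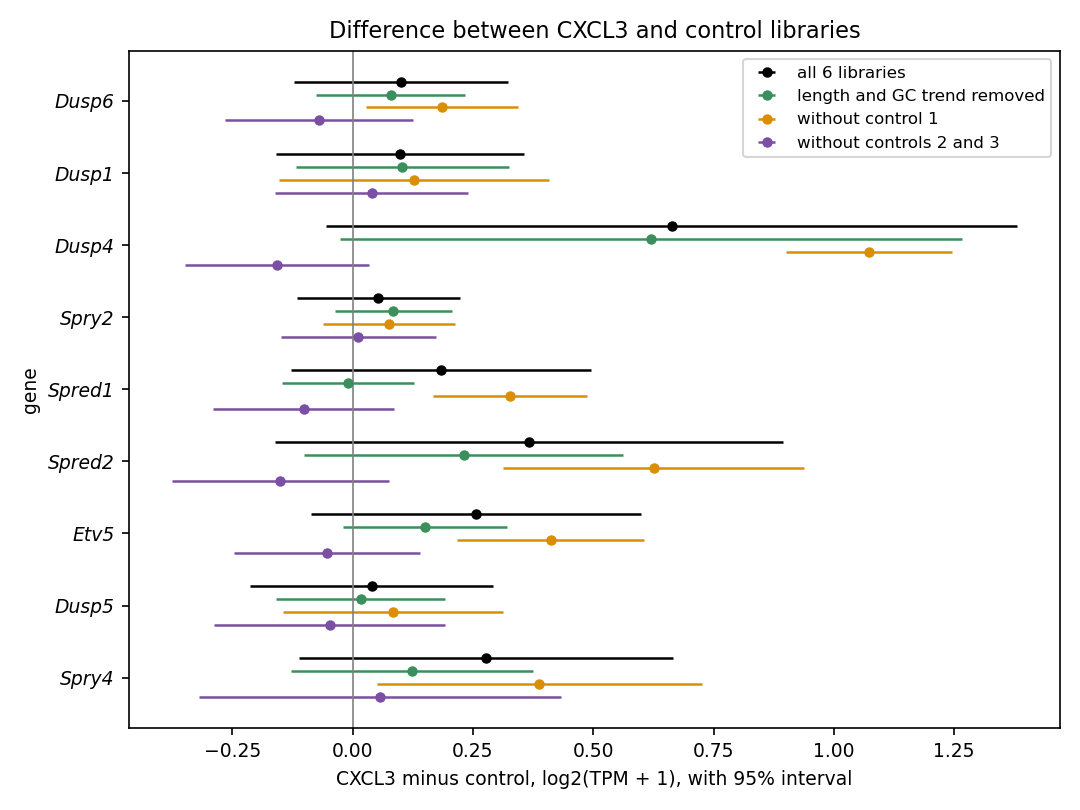
Difference between CXCL3 and control libraries on the log2(TPM + 1) scale for the 9 genes tested, with 95% intervals, for all 6 libraries, with the length and GC trend removed, without control 1, and without controls 2 and 3. With all 6 libraries every interval includes zero, and the value of Dusp4 moves between 1.07 without control 1 and -0.16 without controls 2 and 3.

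Genes around the members were described in lists of the same pathway. None of their members passed over all genes, so that each is given as values. Of the kinases, adaptors and GTPases of the cascade, 21 of 21 were tested, with a median log2 difference of 0.11, where that of all genes was 0.07. Mapk3, of ERK1, averaged 160.8 ± 6.91 TPM with CXCL3 and 160.0 ± 2.02 TPM in controls (SD, n = 3 each; limma, adjusted p = 0.963). The smallest unadjusted p in this list belonged to the GTPase gene Rras (155.4 ± 5.76 TPM with CXCL3 and 186.4 ± 17.2 TPM in controls; limma, adjusted p = 0.342). It was followed by the ERK-activated kinase gene Rps6ka3 (22.1 ± 2.13 TPM with CXCL3 and 15.9 ± 4.76 TPM in controls, adjusted p = 0.422) and the scaffold gene Ksr1 (8.03 ± 0.70 TPM with CXCL3 and 6.22 ± 2.31 TPM in controls, adjusted p = 0.488).

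Other phosphatase genes of the family had 8 of 9 tested and a median of 0.19. Dusp3, of a small phosphatase for ERK and JNK, averaged 46.3 ± 2.57 TPM with CXCL3 and 39.7 ± 8.004 TPM in controls (adjusted p = 0.486), and Dusp8, whose product acts on stress kinases, 6.41 ± 0.82 TPM with CXCL3 and 5.17 ± 1.24 TPM in controls (adjusted p = 0.503). Styx, of a catalytically inactive relative, was listed at 0.85, 2.51 and 4.30 TPM in CXCL3 libraries and at 3.53, 0 and 0 TPM in controls. Other inhibitors of receptor and Ras signalling had 14 of 14 tested and a median of 0.09. Among them the EGF receptor inhibitor gene Errfi1 averaged 50.8 ± 2.08 TPM with CXCL3 and 43.1 ± 7.18 TPM in controls (adjusted p = 0.46). The adaptor gene Dok1 averaged 26.2 ± 0.94 TPM with CXCL3 and 29.0 ± 0.89 TPM in controls (adjusted p = 0.489), and Pea15a, of a protein that holds ERK in the cytoplasm, 143.2 ± 2.19 TPM with CXCL3 and 155.0 ± 9.84 TPM in controls (adjusted p = 0.498).

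All 19 genes on the list of other ERK targets were tested, with log2 differences from -0.19 to 0.77 and a median of 0.10. In 6 of 19 every CXCL3 library was above every control, against 7.92% of all genes, and in 3 every CXCL3 library was below, against 9.31% of all genes. An unadjusted p under 0.05 was found for 6 of 19, where 11.6% of all genes had one. Epha2, of an ephrin receptor, was at 65.6, 65.0 and 59.8 TPM in CXCL3 libraries and at 54.8, 35.7 and 39.0 TPM in controls (log2 difference 0.57 ± 0.15 SE; limma, adjusted p = 0.27). Ccnd1, of cyclin D1, was at 37.0, 34.4 and 33.8 TPM in CXCL3 libraries and at 32.5, 20.5 and 23.3 TPM in controls (0.47 ± 0.16 SE, adjusted p = 0.362). For both, control 1 was the nearest control to the CXCL3 libraries, and the CXCL3 libraries were above it.

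Egr3, of a zinc finger transcription factor, was at 3.64, 2.25 and 2.85 TPM in CXCL3 libraries and at 1.99, 0.95 and 0.99 TPM in controls (0.77 ± 0.22 SE; limma, adjusted p = 0.302). The other 3 with all CXCL3 libraries above the controls, named after their values were seen, were Etv1, an ETS factor related to Etv5 (7.75 ± 0.05 TPM with CXCL3 and 5.41 ± 1.61 TPM in controls), Elk3 (72.2 ± 2.70 TPM with CXCL3 and 59.1 ± 7.89 TPM in controls) and Fosl1 (66.3 ± 2.25 TPM with CXCL3 and 57.9 ± 5.34 TPM in controls). The 3 with all CXCL3 libraries below the controls, also named after their values were seen, were the early response genes Ier2 (69.4 ± 1.08 TPM with CXCL3 and 79.3 ± 3.08 TPM in controls) and Ier3 (673.2 ± 0.26 TPM with CXCL3 and 726.4 ± 37.4 TPM in controls) and the survival gene Mcl1 (87.3 ± 2.34 TPM with CXCL3 and 94.1 ± 3.23 TPM in controls). The immediate early genes Egr1 (34.2 ± 1.09 TPM with CXCL3 and 36.6 ± 6.76 TPM in controls; adjusted p = 0.767) and Fos (47.1 ± 0.26 TPM with CXCL3 and 51.8 ± 9.56 TPM in controls; adjusted p = 0.653) overlapped between the groups. Phlda1, often used with Dusp6 and Spry4 as a readout of ERK activity, averaged 166.8 ± 4.99 TPM with CXCL3 and 153.5 ± 13.3 TPM in controls (adjusted p = 0.503). Etv4, also of an ETS factor related to Etv5 and named after its values were seen, overlapped between the groups. It averaged 30.3 ± 1.14 TPM with CXCL3 and 30.3 ± 3.19 TPM in controls (limma, adjusted p = 0.981).

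**Figure D4:**
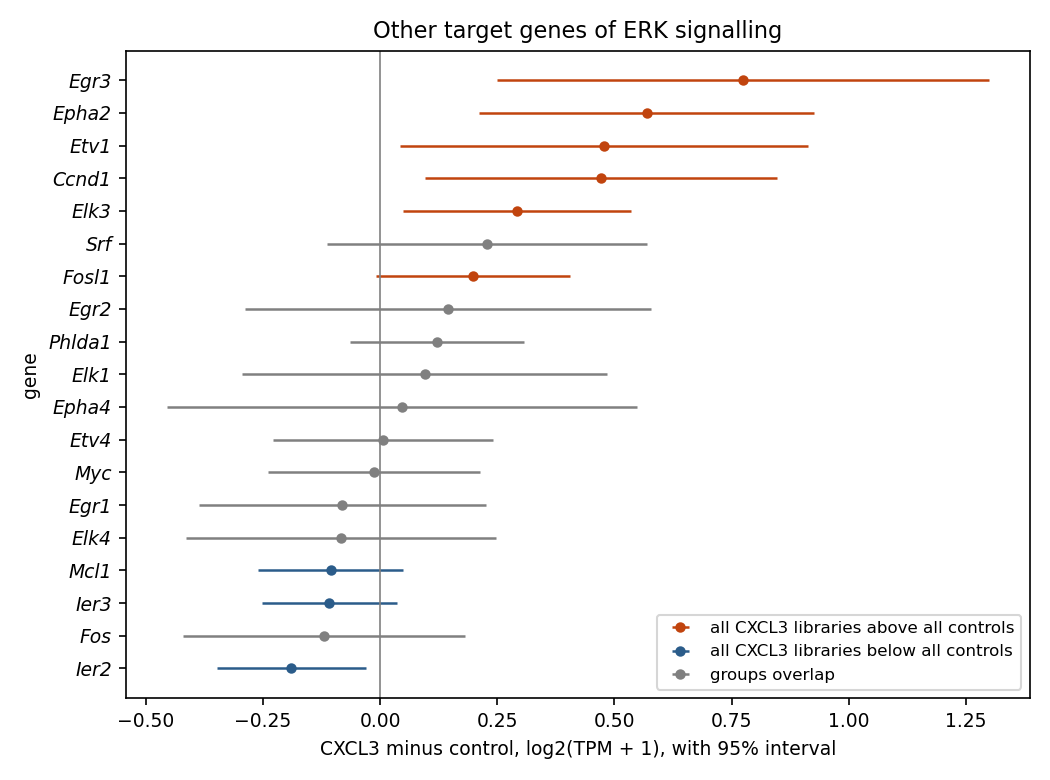
Difference between CXCL3 and control libraries on the log2(TPM + 1) scale for 19 other target genes of ERK signalling, with 95% intervals, coloured by whether the 3 CXCL3 libraries lie wholly above, wholly below or overlap with the 3 controls. Egr3, Epha2, Etv1, Ccnd1, Elk3 and Fosl1 lie to the right with all CXCL3 libraries above the controls, against 7.92% of all genes. Ier2, Ier3 and Mcl1 lie to the left with all CXCL3 libraries below, against 9.31% of all genes. None of the 19 passed an adjusted p of 0.05.

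Dusp1 also responds to glucocorticoids, and 6 of 7 genes with this property were tested. Their log2 differences ran from -0.04 to 0.58, with a median of 0.20. Tsc22d3 (-0.04), Fkbp5 (0.04) and Sgk1 (0.04), named after their values were seen, were the lowest. Without controls 2 and 3 all 6 differences were negative, with a median of -0.20, where that of all genes was -0.08. Klf9, a transcription factor gene, averaged 37.2 ± 2.51 TPM with CXCL3 and 26.1 ± 11.8 TPM in controls (limma, adjusted p = 0.443). The receptor gene Nr3c1 averaged 20.6 ± 1.47 TPM with CXCL3 and 16.4 ± 6.38 TPM in controls (adjusted p = 0.5), and the clock gene Per1 11.5 ± 0.90 TPM with CXCL3 and 9.14 ± 3.57 TPM in controls (adjusted p = 0.503). In Klf9, Nr3c1, Per1 and Fkbp5, control 1 was above every CXCL3 library and controls 2 and 3 below. Dusp1 itself did not show this order. Controls 2 and 3 both lay below every CXCL3 library for 44.5% of all genes tested.

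The genes whose pattern over the 6 libraries was nearest to a member were found by the root mean square difference of standardised log2 values among 9460 other protein-coding genes (9461 for Spry4) with a mean of at least 5 TPM. For Dusp6 they were Rsrc1 (0.0775), Hnrnpr (0.0938) and Cyth3 (0.113). For Dusp1 they were Rabepk (0.143), Zfp64 (0.159) and Zw10 (0.165), and for Spry4 they were Tbk1 (0.0943), Tsr1 (0.0974) and Ints7 (0.101). For Dusp4, looked up after its values were seen, they were Rnf213 (0.00832), Zmym5 (0.0172) and Arid1a (0.0338). Likeness on this measure leaves out the size of the spread: Rnf213 was at 20.97, 20.86 and 20.38 TPM in CXCL3 libraries and at 21.28, 16.93 and 17.28 TPM in controls.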

How the data were processed

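RNA sequencing of 3 CXCL3 and 3 control libraries of cells labelled as primary mouse fibroblasts was used, grouped by the treatment label. The authors deposited 1 table of TPM per gene, in which each column belongs to 1 of these libraries. Tools listed in the submitters' processing notes, without versions, are fastp, HISAT and RSEM, with the build GRCm38.p5. No source used here gives the annotation release, filters or strand setting. Columns sum to between 984281 and 986705 TPM, depth is unknown, and no 2 columns are identical. GENCODE M21 (GRCm38) gave a symbol for 51719 of 51912 identifiers and the longest transcript's length and GC content. Promoters are from RefSeq.

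Genes with at least 1 TPM in at least 3 libraries (13139) entered limma (version 3.58.1, R version 4.3.3, eBayes with trend) on log2(TPM + 1). Tests were two-sided, and p-values were adjusted by Benjamini-Hochberg across these genes with a threshold of 0.05. This scale understates changes of low genes. The smallest p an exact permutation test could give here is 0.1, so none was run. The fit was run on simulated data with independent noise in each gene and the same SD in both groups. Such data hold no trend with transcript length and no larger spread in controls. They therefore cannot show how the fit handles these. The length and GC trend was removed per library by loess with a span of 0.5. The closing section gives the effect of 17 other settings.

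The members and lists were chosen with earlier results of these data known. The genes named are the 10 members, Mapk3, Egr1, Fos, Phlda1, Ccnd1, the 3 with the smallest p of each list where none passed, and the 3 genes nearest to Dusp1, Dusp6 and Spry4. Other names are marked where they appear, and 1 gene that the rule names is not reported here.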

Additional observations from a re-analysis of the deposited data

How the results depend on the processing

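Of 153 values of the 9 members under 17 other settings, 136 kept their sign and their side of the threshold, 5 passed with the same sign and 12 changed sign. Those that passed were Dusp4, Spred1, Spred2 and Etv5 without control 1 (1.07, 0.33, 0.63 and 0.41) and Dusp4 with library weights (0.94). Signs changed without controls 2 and 3 for Dusp4 (-0.16), Dusp5 (-0.048), Dusp6 (-0.070), Spred1 (-0.10), Spred2 (-0.15) and Etv5 (-0.053). They changed without control 2 for Dusp1 (-0.011) and Dusp5 (-0.037), with median-of-ratios scaling for Dusp5 (-0.035) and Spry2 (-0.024), with quantile normalization for Dusp5 (-0.042), and with the length and GC trend removed for Spred1 (-0.0095). Leaving out 1 library at a time, Dusp1 ranged from -0.011 to 0.178 and Dusp5 from -0.037 to 0.083. Leaving out 1 library at a time gave 0 to 4 members called, 0 to 30 genes of the other pathway lists, and 0 to 4254 of all genes. The largest counts came without control 1, where 25.2% of all genes passed as higher and 7.17% as lower. The 30 were 7 higher and 1 lower of 21 cascade genes, and 4 higher of 8 other phosphatase genes. They also held 6 higher of 14 other inhibitors, 7 higher and 2 lower of 19 other targets, and 3 higher of 6 glucocorticoid-responsive genes. With library weights 1 member and 9 genes of the other lists passed, where 11% of all genes did. The count over all genes, 21 (4 higher and 17 lower) with all libraries, was 0 with no filter (1928 at an unadjusted p under 0.05, limma), 5 under median-of-ratios scaling (0 higher and 5 lower), 54 with the trend removed (20 higher and 34 lower), 1 without a mean-variance trend, 1446 with library weights (1046 higher and 400 lower) and 84 without controls 2 and 3 (32 higher and 52 lower). Pseudocounts of 0.1 and 5 and a filter of 5 TPM changed no call or sign of a member. With the length and GC trend removed, the median of all genes was 0.007. The list medians were then 0.02 for the cascade, 0.07 for other phosphatases and -0.03 for other inhibitors. For other targets the median was 0.02 and for glucocorticoid-responsive genes 0.08. Without controls 2 and 3 the list medians were, in the same order, -0.13, -0.08, -0.15, -0.07 and -0.20, and -0.08 over all genes. The cause of these shifts was not tested.

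With the replicate number as a block, 12 genes and 0 members passed. Against the fit without a block, the SE of Dusp4 fell from 0.31 to 0.22 and that of Spry2 rose from 0.073 to 0.095. Deviations of same-numbered libraries had correlations of 0.12, -0.01 and 0.08 across genes, and not every library correlated best with its own number. With 3 libraries per group, these correlations cannot decide whether the numbers mark pairs. Spry1 has no value in the settings that keep the filter. Depth is not in the table, and the spread between 3 libraries limits every value.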
